A study of Mus musculus with 59 samples.

Results

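The nuclear genes of oxidative phosphorylation encode most subunits of the respiratory chain and of the ATP synthase, and the factors that assemble them. They were taken as every gene of the table whose symbol begins with Nduf, Sdha to Sdhd, Uqcr, Cox4 to Cox8, Cox10 to Cox19, Atp5 or Cyc1, without pseudogenes. The table held 4484 genes, 4465 of them with a symbol, and 37 met this rule. All 37 were among the 4273 genes tested. They comprised 16 subunits of complex I, 3 complex I assembly factors, 1 subunit of complex II, 5 of complex III, 3 of complex IV, 4 complex IV assembly factors and 5 subunits of complex V. The pseudogene Ndufab1-ps, with 0 to 21 reads per library, was left out. Subunits outside the table were not analysed here.

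RNA was sequenced from homogenate of the medial prefrontal cortex of adult C57BL/6J mice, an inbred strain, all wild type and with no treatment named. Males and females were killed every 4 h over 24 h, from ZT2 to ZT22, where ZT counts hours after lights on by convention. The 59 libraries formed 12 groups of time by sex, with 5 libraries each except for females at ZT10, which had 4. The labels give no light schedule, and ZT14, ZT18 and ZT22 are taken as the dark phase.

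The libraries held 6317420 to 13325019 reads in the table, with a median of 9015221, and the 6 most abundant noncoding genes took 61.4% to 91.2% of them. The titles carry serial numbers. The libraries numbered 49 to 60 (n = 11, with 1 in each group except females at ZT10) differed in the median from those numbered 1 to 48. Their median noncoding share was 70.9% against 79.5%, while the ranges, 61.4% to 78.6% and 62.0% to 91.2%, overlapped. Within a group 2 to 4 animal numbers occurred, so that some libraries of a group carry the same one. The labels do not say whether these are the same mouse, and p-values measure the spread between libraries. The cortical neuron markers Snap25 and Slc17a7 were in the table, and neither was at 0 in any library. Markers of endothelium, blood, oligodendrocyte precursors, striatal projection neurons and choroid plexus were not in the table.

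In the inner mitochondrial membrane, complexes I and II pass electrons from NADH and succinate to coenzyme Q. Complex III passes them on to cytochrome c, and complex IV passes them to oxygen. Complexes I, III and IV pump protons, and complex V uses the gradient to make ATP, on which neurons depend to restore their ion gradients. A few subunits are encoded in mitochondrial DNA, and the table listed none of those 13 transcripts.

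The level of the members, as scaled reads per kilobase of the principal transcript, spanned a 514-fold range. In homogenate, fewer cells of a type and less RNA per cell cannot be told apart. Cox4i1, a complex IV subunit of most tissues, was highest, with 17985 ± 3661 scaled reads per kilobase (SD, n = 59). It exceeded the next gene, Atp5b, in all 59 libraries. Atp5b, the catalytic beta subunit of complex V, had 10416 ± 892 scaled reads per kilobase. Uqcrh, the hinge protein of complex III, had 8973 ± 2600, and Atp5a1, the alpha subunit of complex V, had 7708 ± 421 (SD, n = 59). From Atp5b down to Atp5mpl, a small membrane subunit of complex V, none of the 4 steps between neighbours exceeded its SD over libraries. Per kilobase of all exonic bases the 3 highest were Cox4i1, Atp5a1 and Atp5b.

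At the other end, Ndufb2, an accessory subunit of complex I, had 122.7 ± 30.3 scaled reads per kilobase (SD, n = 59). That level was taken over an annotated transcript of 4371 bases, the longest among the members, and its low rank depends on this length. In reads Ndufb2 had 174 per library on average, against 211 for Ndufa7, whose transcript has 528 bases. Cox18, which helps to insert a core subunit of complex IV into the membrane, had 79.4 ± 21.6. Cox6a2, the complex IV isoform of heart and skeletal muscle, was lowest with 35.02 ± 25.5. It had 0 to 25 reads per library and none in 4 libraries, so its changes rest on few reads. Cox18 had 4 to 77 reads per library, and 30 members had at least 100 reads in every library. All 7 assembly factors lay among the 11 lowest members. Of the 36 neighbouring pairs in the order, 24 did not differ beyond their spread.

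**Figure D1:**
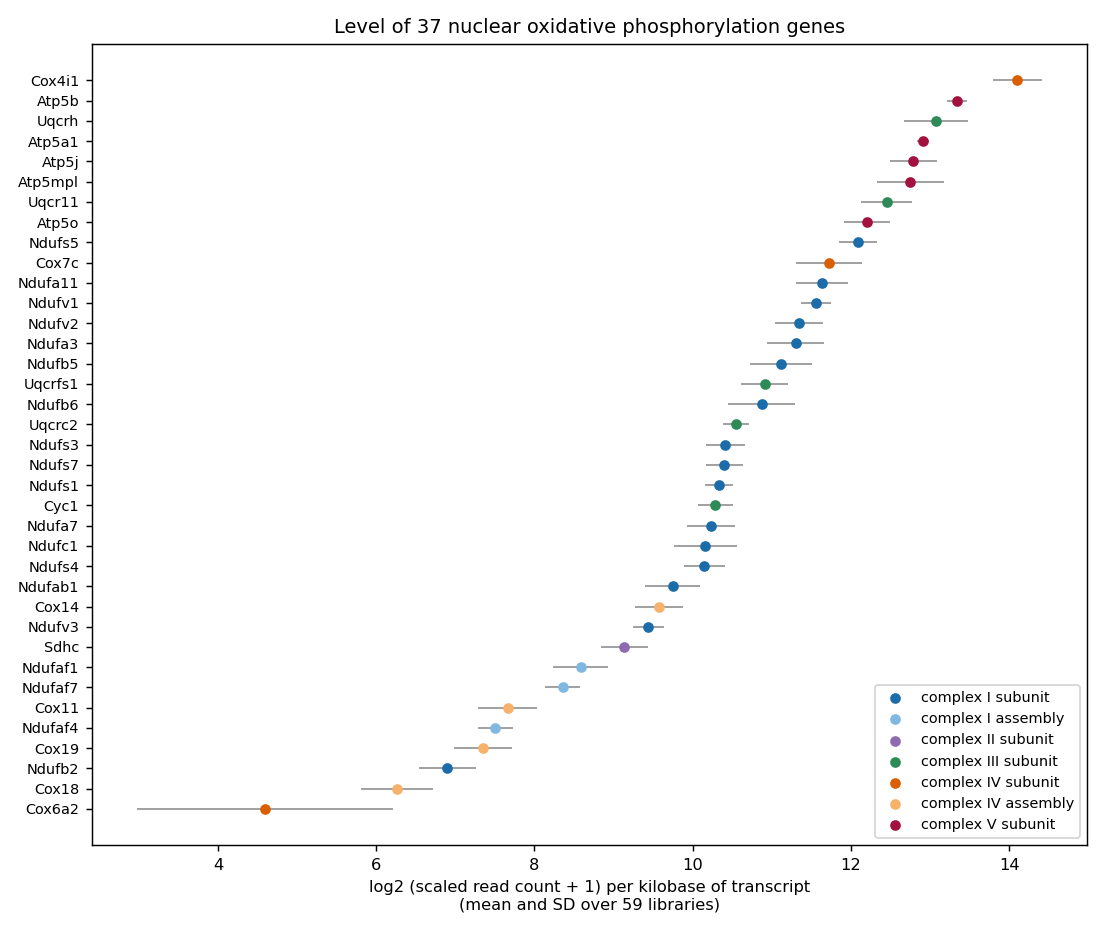
Level of the 37 members as log2 of the scaled read count plus 1 per kilobase of transcript, with points for the mean and bars for the SD over 59 libraries, ordered by level and coloured by complex. Cox4i1 stands highest, the assembly factors lie in the lower part, and Cox6a2 has the widest bar.

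The main question of the design was which transcripts change over 24 h. None of the 37 members passed the test (limma, Benjamini-Hochberg over all genes tested, threshold 0.05), against 1.9% of all genes, and none had an unadjusted p under 0.05, against 11.4% of all genes. limma voom on the recovered reads also called none. The amplitude from the mean to the peak ran from 0.01 to 0.11 on the log2 scale in 36 members and was 0.49 ± 0.29 (SE) in Cox6a2. The median amplitude of the members was 0.05, against 0.08 over all genes tested. In the same libraries 6 of the 7 clock genes tested were called, and none of the 7 scaled by library totals. Among the 6 was Per1, a clock repressor, with an amplitude of 0.45 ± 0.05 (SE, n = 59, adjusted p = 9.74e-08, limma). The upper 95% bound of the amplitude ran from 0.06 in Atp5a1 to 0.32 in Cox18 and was 1.22 in Cox6a2. The bound for Atp5a1 corresponds to a 1.09-fold range from trough to peak and that for Cox18 to a 1.56-fold range.

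By complex, the median amplitude was 0.04 over the complex I subunits, where Ndufv1 had the lowest, 0.01 ± 0.04, and Ndufb5 the highest, 0.07 ± 0.07 (SE, n = 59). It was 0.06 over the complex I assembly factors, with Ndufaf1 highest at 0.07 ± 0.06. Over the complex III subunits it was also 0.06, and ran from 0.02 in Uqcr11 to 0.11 in Uqcrfs1. The 3 complex IV subunits had 0.04 at the median and the 4 complex IV assembly factors 0.05, with Cox18 highest at 0.10 ± 0.09. The complex V subunits had the lowest median, 0.03, from 0.01 in Atp5a1 to 0.05 in Atp5o. An amplitude cannot be negative and grows with the noise of a gene, and no member was called. These medians, and the 0.05 against 0.08 over all genes, are therefore descriptions and do not rank rhythms. The fitted peak fell between ZT0 and ZT12 in 32 of the 37 members and in 50.6% of all genes. The members vary together between libraries, as described further on, so that they are not 37 independent observations.

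The smallest p of the members belonged to Uqcrc2, a core subunit of complex III (adjusted p = 0.646, limma). Its median log2 value was 11.49 at ZT2, 11.42 at ZT6, 11.50 at ZT10, 11.62 at ZT14, 11.43 at ZT18 and 11.39 at ZT22. Libraries ran from 11.17 to 11.74 at ZT14, the time of the highest mean, and from 11.19 to 11.59 at ZT22, the time of the lowest, and so overlapped over most of their range. The fitted curve had an amplitude of 0.06 ± 0.03 (SE, n = 59) and peaked at ZT9.78.

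Uqcrfs1, the Rieske iron-sulfur protein of complex III, had a median log2 value of 11.28 at ZT2, 11.26 at ZT6, 11.46 at ZT10, 11.45 at ZT14, 11.17 at ZT18 and 11.29 at ZT22. Libraries at ZT10 lay between 10.99 and 11.90 and those at ZT18 between 10.89 and 11.78. The curve, with an amplitude of 0.11 ± 0.05 (SE, n = 59), peaked at ZT9.03 (adjusted p = 0.659, limma).

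Sdhc, which anchors complex II in the membrane, had a median of 10.87 at ZT2, 10.69 at ZT6, 11.07 at ZT10, 10.96 at ZT14, 10.70 at ZT18 and 10.81 at ZT22. The libraries at ZT10, from 10.54 to 11.39, overlapped those at ZT18, from 10.02 to 11.24. The fitted peak was at ZT9.41, with an amplitude of 0.10 ± 0.05 (SE, n = 59, adjusted p = 0.711, limma).

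Ndufv3, an accessory subunit of the NADH-oxidising module of complex I, had a median of 10.21 at ZT2, 10.11 at ZT6, 10.23 at ZT10, 10.17 at ZT14, 9.98 at ZT18 and 10.11 at ZT22. Its libraries spanned 9.98 to 10.41 at ZT10 and 9.65 to 10.33 at ZT18, and overlapped. The fit peaked at ZT7.27 with an amplitude of 0.06 ± 0.04 (adjusted p = 0.816, limma). Ndufs1, the largest iron-sulfur subunit of complex I, had its highest median at ZT14, with libraries from 11.60 to 12.19, and its lowest at ZT18, with libraries from 11.38 to 11.96. Those times overlapped too, and the amplitude was 0.05 ± 0.03 (adjusted p = 0.816, limma).

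Cox6a2 had its lowest median at ZT10, 2.82, with libraries from 0 to 5.93, and its highest at ZT18, 4.94, with libraries from 0 to 5.75. Both times held libraries without a read. Its fitted peak was at ZT0.715 (adjusted p = 0.793, limma). Atp5a1 was the steadiest member, with means by time between 14.20 and 14.24.

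**Figure D2:**
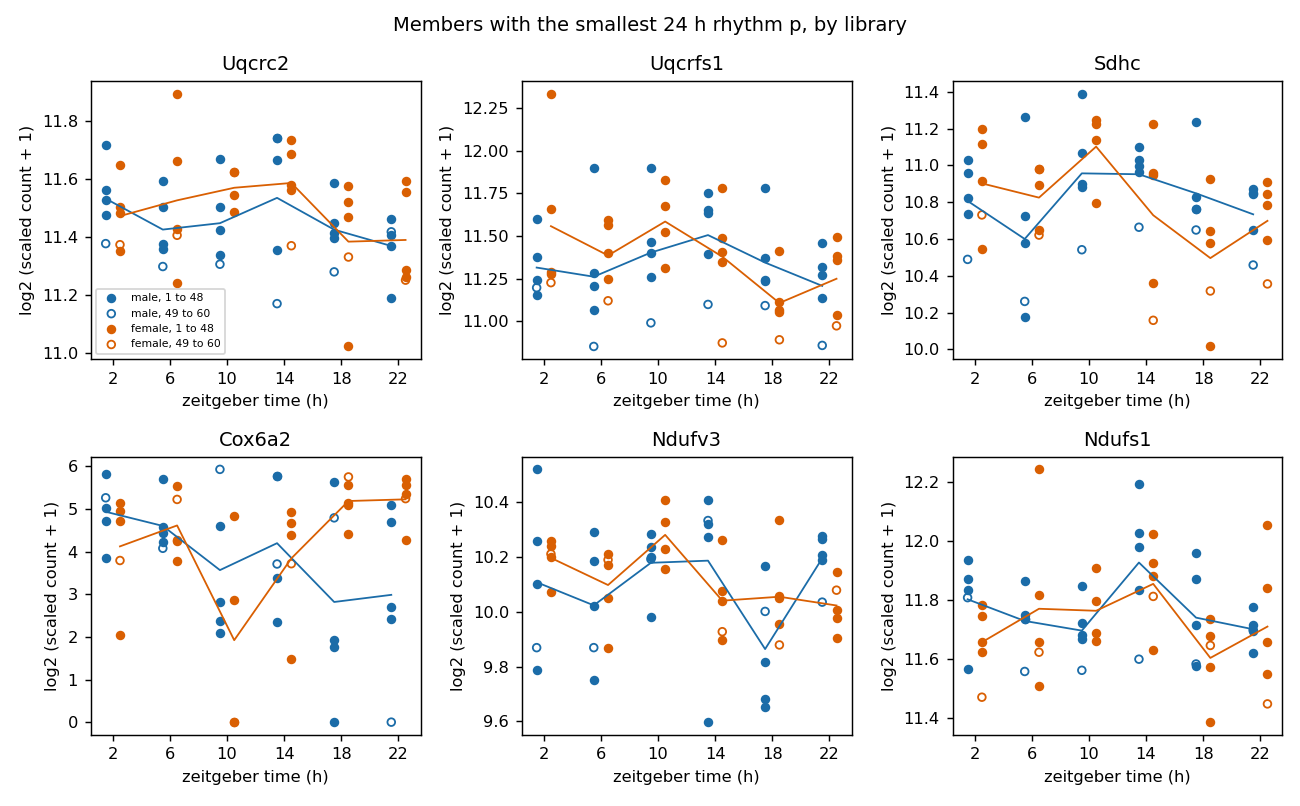
Log2 (scaled count + 1) by zeitgeber time in hours in each library for the 6 members of smallest 24 h rhythm p, with males in blue and females in orange, open circles for serial numbers 49 to 60 and lines for the mean of each sex. The times overlap in every panel, and many open circles of Uqcrfs1 and Sdhc lie at the bottom of their group.

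With the first 2 principal components of the values as covariates, a fit added after the values were seen, 2 members were called over 24 h, which is 5.41% against 11.7% of all genes in that fit. Sdhc had an amplitude of 0.11 there (adjusted p = 0.00103, limma) and Uqcrfs1 of 0.09 (adjusted p = 0.0097, limma). With the first 2 components of the residuals from the group means only Uqcrfs1 was called (adjusted p = 0.0235, limma), which is 2.7% against 8.4% of all genes. Residual components average 0 in every group, so such fits keep the fitted differences and understate the spread. Their p-values, here and below, cannot decide on a rhythm or a phase difference.

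The dark phase was compared with the light phase with both sexes in the fit. No member passed in limma, against 0.702% of all genes, and none had an unadjusted p under 0.05, against 8.35%. limma voom also called none. The dark minus light difference was negative in 31 of the 37 members, with a median of -0.05 on the log2 scale, against -0.00056 and 50.4% negative over all genes. Sdhc had a median of 10.89 in the light phase (10.17 to 11.39, n = 29) and 10.81 in the dark phase (10.02 to 11.24, n = 30). Its difference was -0.12 ± 0.07 (SE), with an adjusted p of 0.691 (limma). Uqcrfs1 differed by -0.12 ± 0.07, with libraries from 10.85 to 12.34 in the light and from 10.86 to 11.78 in the dark. Ndufv3 differed by -0.09 ± 0.05, with libraries from 9.75 to 10.52 in the light and from 9.60 to 10.41 in the dark. The phases overlapped over most of their range in all 3. With the residual components as covariates 2 members were called, both lower in the dark, which is 5.41% against 6.72% of all genes, and with the components of the values 1 was, which is 2.7% against 4.82%.

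A 12 h term added to the 24 h model called no member in limma, against 0% of all genes, and limma voom called none. Atp5o, Ndufs7, Ndufv3 and Atp5mpl had an unadjusted p under 0.05, which is 10.8% of the members against 6.81% of all genes. Atp5o, the stalk subunit known for the oligomycin sensitivity of complex V, had a median of 12.04 at ZT2, 11.96 at ZT6, 12.07 at ZT10, 12.08 at ZT14, 11.86 at ZT18 and 12.02 at ZT22. Its libraries ran from 11.41 to 11.97 at ZT18 and from 11.68 to 12.50 at ZT10, and overlapped. The 12 h amplitude was 0.15 ± 0.05 (SE, n = 59, adjusted p = 0.625, limma). Ndufs7, an iron-sulfur subunit of complex I, had libraries from 10.18 to 10.75 at ZT22, the time of its highest median, and from 9.92 to 10.59 at ZT18, the time of its lowest. Its 12 h amplitude was 0.11 ± 0.04, and that of Ndufv3 was 0.10 ± 0.04 (SE, n = 59). The fitted 12 h peak lay within 2 h of ZT0 and ZT12 in 33 members and in 39.8% of all genes. It also lay there in every cytosolic ribosomal protein gene tested, from 11.2 h in Rps26, past 12 h, to 1.05 h in Rpl7l1. This timing is thus not particular to the members, which are not independent observations. The median noncoding share was 79.7% at ZT2, 77.5% at ZT6, 77.8% at ZT10, 80.0% at ZT14, 77.0% at ZT18 and 77.8% at ZT22. With the share as a covariate no member was called either. With the first 2 residual components as covariates 22 members were called over 12 h, which is 59.5% against 22.5% of all genes, while with the components of the values none was called. The residual components leave the fitted 12 h rhythms as they were and understate the spread, so these 22 calls cannot decide on a 12 h rhythm.

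**Figure D3:**
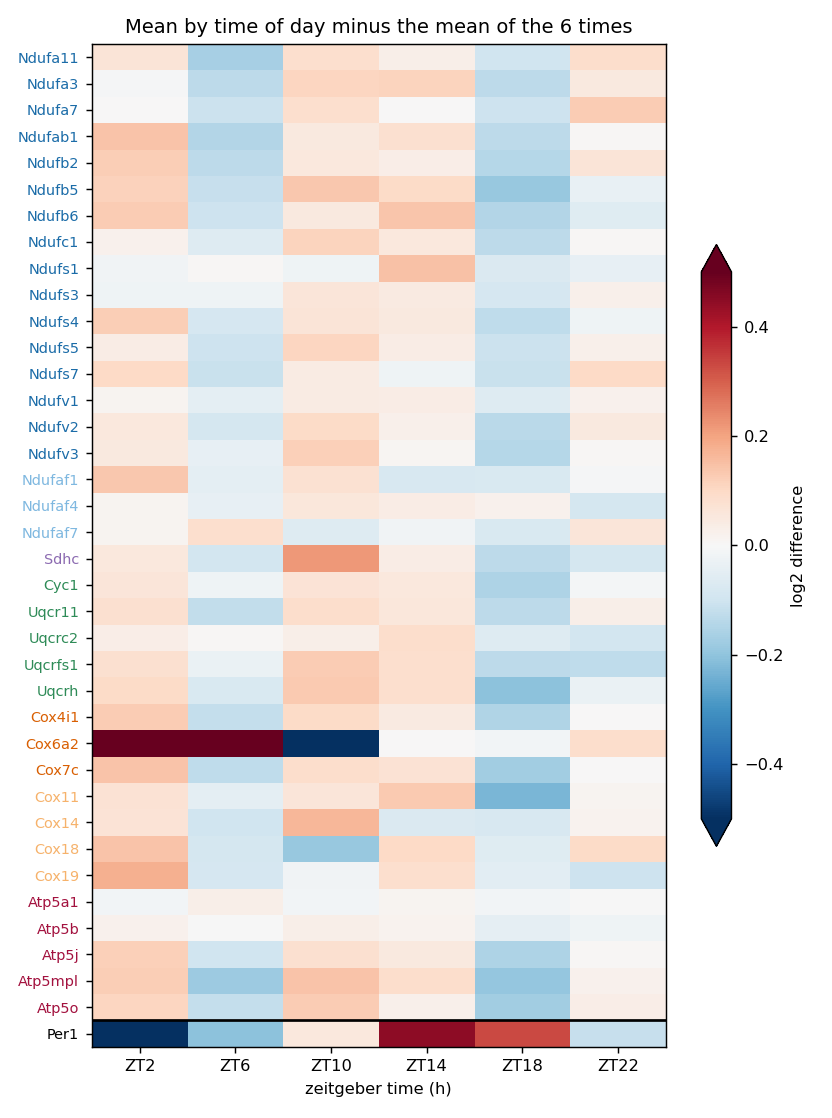
Mean log2 value of each member at each of the 6 times minus the mean of the 6 times, grouped by complex, with the clock gene Per1 in the bottom row and a colour scale from -0.5 to 0.5, beyond which Cox6a2 lies. Most member rows stay pale, with ZT6 and ZT18 slightly below the other times in many of them, while Per1 runs from low at ZT2 to high at ZT14.

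The sexes were also fitted apart. In males no member passed in limma, against 0.164% of all genes, and none had an unadjusted p under 0.05, against 7.54%. The smallest p was that of Ndufaf7, which methylates a complex I subunit during assembly, with an amplitude of 0.13 ± 0.05 (SE, n = 30, adjusted p = 0.684, limma). In females none passed, against 0.328% of all genes, and 3 members had an unadjusted p under 0.05, which is 8.11% against 8.89% of all genes. limma voom called none in either sex. With the residual components as covariates 4 members were called in males (10.8% against 8.4% of all genes) and 17 in females (45.9% against 16.2%), and with the components of the values none in either sex, against 2.86% and 2.83%. In females the amplitude was 1.17 ± 0.35 for Cox6a2 (adjusted p = 0.344, limma), 0.21 ± 0.08 for Sdhc (adjusted p = 0.532, limma) and 0.14 ± 0.05 for Cyc1, cytochrome c1 of complex III (SE, n = 29, adjusted p = 0.538, limma).

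Whether the rhythm differed between males and females was tested itself, and called no member in limma or in limma voom, against 0% of all genes. With the residual components as covariates 22 members were called, which is 59.5% against 16.8% of all genes, and with the components of the values none was. The residual components average 0 in every group by construction, so that they leave the fitted rhythms as they were and shrink the residual spread. The calls of that fit therefore cannot decide whether the rhythms differ. Cox6a2, Cox11, Sdhc and Ndufs3 had an unadjusted p under 0.05, which is 10.8% of the members against 4.21% of all genes, and each had an adjusted p of 0.741 (limma). The fitted peak fell between ZT12 and ZT24 in males and between ZT0 and ZT12 in females in 30 of the 37 members, and in 31.4% of all genes. It is not particular to the members, which are not independent observations. Most cytosolic ribosomal protein genes had it as well, such as Rpl39 at ZT16.4 in males and ZT6.50 in females, while Rpl10a and Rpl7l1 did not.

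Cox11, which delivers copper to complex IV, had log2 values of 8.19, 8.04, 7.94, 8.31 and 7.81 in the 5 males at ZT18. The 5 females at that time had 7.24, 7.70, 7.57, 7.37 and 7.07. All 5 females lay below all 5 males at ZT18, a time picked after the values were seen, on 46 to 110 reads per library. At ZT2 the females, from 7.12 to 8.85, enclosed the males, from 7.83 to 8.48.

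Cox6a2 had log2 values of 5.63, 1.76, 1.92, 0 and 4.79 in males at ZT18 and 5.55, 4.41, 5.08, 5.14 and 5.75 in females. The sexes overlapped there, and the values stand on 0 to 13 reads in males and 5 to 25 in females. Sdhc had 10.76, 10.77, 10.83, 11.24 and 10.65 in males at ZT18 and 10.64, 10.93, 10.58, 10.02 and 10.32 in females, which overlapped. Ndufs3, a core subunit of the arm that carries electrons to coenzyme Q, had 10.53, 10.33, 10.57, 10.67 and 10.45 in males at ZT18 and 10.42, 10.51, 10.32, 10.03 and 10.09 in females, and these overlapped as well.

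Males minus females, with time as a factor, called no member in limma, against 0.0234% of all genes, and none had an unadjusted p under 0.05, against 2.43%. limma voom called none. The difference ran from -0.04 to 0.09 on the log2 scale in 36 members and was -0.34 in Cox6a2. The median was 0.03, against 0.0005 over all genes. Ndufaf4, a complex I assembly factor, had values between 8.86 and 9.84 in males (median 9.41) and between 8.98 and 9.74 in females (median 9.36). Its difference was 0.08 ± 0.06 (SE, adjusted p = 0.999, limma). Ndufv2, an iron-sulfur subunit of complex I, differed by 0.09 ± 0.08, with males from 11.59 to 12.75 and females from 11.37 to 12.57. Cox4i1 differed by 0.08 ± 0.08, with males from 13.05 to 14.18 and females from 12.93 to 14.25. The sexes overlapped over most of the range in all 3.

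Between the libraries numbered 49 to 60 and those numbered 1 to 48, with the 12 groups as a factor, most members differed. Lower in the later libraries were 32 of the 37 and higher was none (limma, Benjamini-Hochberg), whereas scaled by library totals 2 members were called, both higher, where 48.2% of all genes were called. Of all genes 54% were called, with 31% lower and 23% higher. The members' median difference was -0.38 on the log2 scale, 23.3% lower, against -0.05 over all genes. Scaled by library totals it was 0.03 for the members and 0.31 for all genes. Relative to all genes, the members' median was lower under both scalings, by -0.33 and -0.28.

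Cox7c, a small complex IV subunit, had values from 10.03 to 11.65 with a median of 10.91 in the libraries numbered 1 to 48. In those numbered 49 to 60 it had 10.04 to 10.64 with a median of 10.33, all inside the earlier range but below the earlier median. Its difference was -0.57 ± 0.11 (SE, adjusted p = 5.83e-05, limma). Ndufb6, an accessory subunit of complex I, had 9.55 to 11.35 (median 10.36) in the earlier and 9.48 to 10.09 (median 9.87) in the later libraries, a difference of -0.56 ± 0.12. Ndufc1, another accessory subunit, had 9.85 to 11.37 (median 10.63) and 9.82 to 10.25, a difference of -0.55 ± 0.11. The earlier and later ranges overlapped in all 37 members. In 27 of them all 11 later libraries lay below the median of the earlier ones. That count was not made for all genes, of which 31% were called lower, so it is not a trait shown to be particular to the members.

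The lower members included 14 of 16 complex I subunits, all 3 complex I assembly factors, the complex II subunit, all 5 complex III subunits, 2 of 3 complex IV subunits, 3 of 4 complex IV assembly factors and 4 of 5 complex V subunits. The 5 members not called were Ndufs7 (-0.15 ± 0.08), Cox18 (-0.27 ± 0.16), Ndufv3 (-0.04 ± 0.07), Atp5a1 (-0.04 ± 0.04) and Cox6a2 (0.16 ± 0.48). Atp5a1 had 14.04 to 14.43 (median 14.22) in the earlier and 14.07 to 14.28 (median 14.17) in the later libraries. The called member of smallest difference was Ndufs1, with -0.16 ± 0.06. With libraries of 1 group and the same animal number averaged, 10 members were called, all lower and all among the 32, which is 27% against 18.7% of all genes in that fit. Averaging joined earlier and later libraries into 1 unit in most groups, such as numbers 26 and 50 of females at ZT2. Such a unit was coded by its fraction of later libraries, so that fit is not a plain comparison of later with earlier libraries. With the noncoding share as a covariate 25 were called, all lower and 24 of them among the 32, which is 67.6% against 35.3% of all genes.

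The members also followed the noncoding share of a library within groups. In limma 31 of the 37 were higher where the share was higher and none was lower, while scaled by library totals 36 were lower and none higher, where 93.3% of all genes were called. Of all genes 52.8% were called, with 29.9% higher, and at an unadjusted p under 0.05 it was 32 members and 57.4% of all genes. The median slope was 0.26 on the log2 scale per 10 percentage points of share, against 0.04 over all genes, and scaled by library totals it was -0.33 against -0.51. Atp5mpl had a slope of 0.43 ± 0.07, Uqcrh 0.43 ± 0.06 and Ndufa3, a small accessory subunit of complex I, 0.40 ± 0.05 (SE). The members not called were Cox18 (-0.22 ± 0.10), Ndufs1 (-0.01 ± 0.04), Atp5a1 (0.02 ± 0.02), Uqcrc2 (0.03 ± 0.04), Ndufaf7 (0.06 ± 0.05) and Cox6a2 (0.21 ± 0.31). Without the libraries numbered 49 to 60, 23 members were called, 22 higher and 1 lower, which is 62.2% against 26.7% of all genes. That 1 was Cox18, with -0.38 (adjusted p = 0.0123, limma).

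The 3 highest members were set against the share across libraries, with p adjusted over these 3 relations. For Cox4i1 Pearson's r was 0.83 and Spearman's rho 0.72 over 59 libraries. Without the 2 libraries farthest from the median share r was 0.79, within numbers 1 to 48 it was 0.77, and within 49 to 60 it was 0.86 (permutation p = 0.00092, adjusted 0.00276, n = 11). For Uqcrh r was 0.72 and rho 0.69, with r at 0.66 without the 2 farthest, 0.62 in the earlier and 0.75 in the later libraries (permutation p = 0.00756, adjusted 0.0113, n = 11). For Atp5b r was 0.67 and rho 0.66, with r at 0.63, 0.54 and 0.64. In the later libraries the permutation p for Atp5b was 0.0347 for r and 0.0523 for rho, with the same adjusted values (n = 11). Over all 59 libraries the permutation p was 1e-05 for r and rho of each of the 3 genes, also after adjustment, which is the smallest that 100000 permutations can give. Share and level come from the same reads, and the scaling depends on both.

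**Figure D4:**
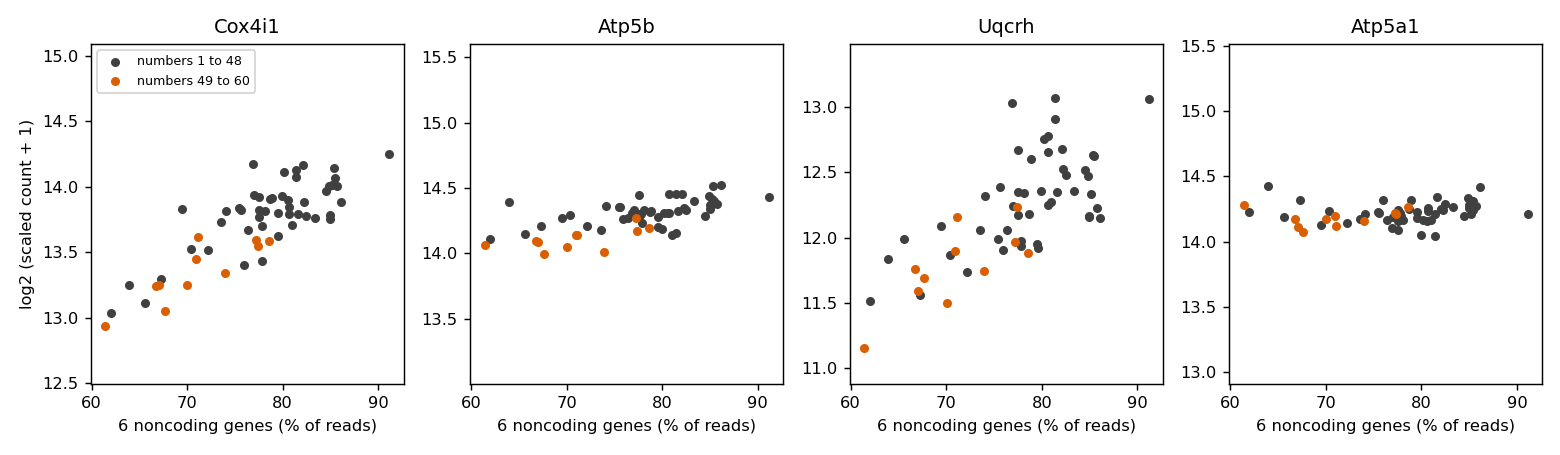
Log2 (scaled count + 1) of Cox4i1, Atp5b, Uqcrh and Atp5a1 in each of 59 libraries against the percent of reads taken by the 6 most abundant noncoding genes, with serial numbers 49 to 60 coloured apart and the same height of axis in every panel. Cox4i1 and Uqcrh rise steeply with the share, Atp5b less so, and Atp5a1 stays near its median of 14.21.

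Shorter members had larger slopes. Across the 37 genes Spearman's rho of transcript length with the slope was -0.62, against -0.39 over 3932 protein-coding genes, and rho with the difference by serial number was 0.36, against 0.36. Genes are not independent replicates, so these are descriptions. Among transcripts under 1000 bases, 93.3% of 15 members and 76.5% of 183 protein-coding genes were called higher with the share, with median slopes of 0.34 and 0.28. From 1000 to 2000 bases 80% of 15 members and 43.7% of 759 genes were called higher, with medians of 0.19 and 0.13. At 2000 bases or more 5 of 7 members and 23.04% of 2990 genes were called higher, with medians of 0.26 and -0.01. Each length is that of the longest among the best-ranked annotated transcripts of a gene, so these classes depend on that choice. The 7 longer members include Ndufb2 (4371 bases) and Ndufab1 (3479 bases). By serial number, 6 of those 7 longer members and 25.4% of the 2990 genes were lower, with medians of -0.38 and 0.03.

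**Figure D5:**
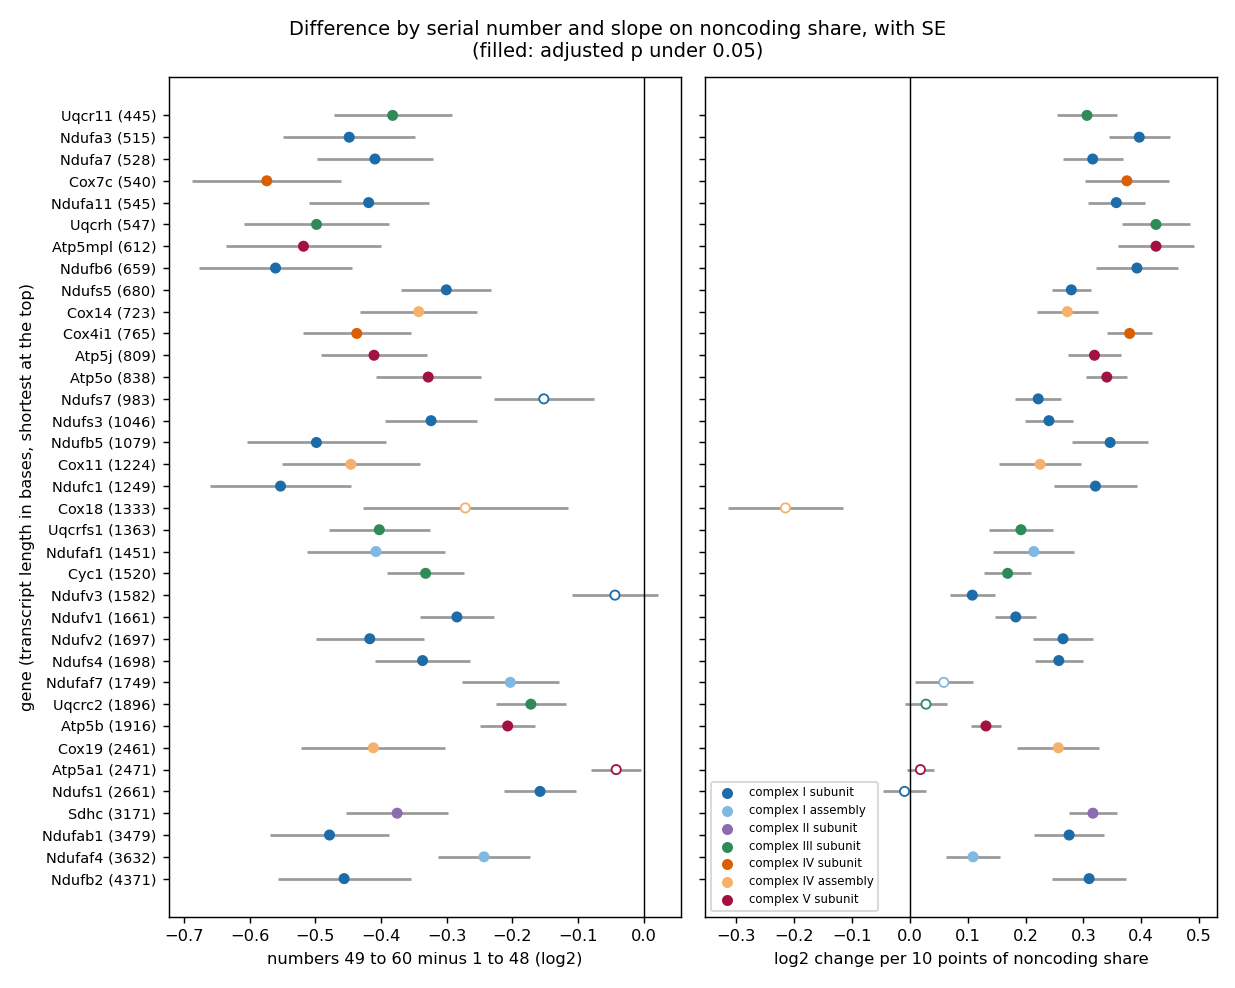
Difference between serial numbers 49 to 60 and 1 to 48 (left) and slope per 10 points of noncoding share (right) for 36 members on the log2 scale, ordered by transcript length, with bars for the SE and filled points for an adjusted p under 0.05. Cox6a2 is left out for its wide error, all differences shown are below 0 and all slopes but those of Cox18 and Ndufs1 above it, and Atp5a1 lies close to 0 in both panels, all on the deposited scaling.

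Other genes moved with these libraries. Of 29 cytosolic ribosomal protein genes 28 were lower in numbers 49 to 60, with a median of -0.54, and scaled by library totals 5 were lower and none higher, with a median of -0.12. The cortical neuron markers Snap25 and Slc17a7 were higher, by 0.27 and 0.25, as were 2 of 4 markers of GABAergic neurons, and the GABAergic count grew to 3 scaled by library totals, while 1 GABAergic marker was called scaled by totals without the 6 noncoding genes. Of the 3 astrocyte markers none was called, and of the 2 microglia markers 1 was lower, while scaled by library totals 3 and 1 were called, all higher. The summed level of the GABAergic markers was 3550 to 6879 scaled reads in numbers 1 to 48 and 4369 to 5990 in 49 to 60, and that of the microglia markers was 650.2 to 1619 and 529.6 to 1130. With the noncoding share all 29 ribosomal protein genes were higher, with a median slope of 0.43 per 10 points, whereas scaled by library totals 20 were lower. Also higher with the share were the astrocyte markers Slc1a3 (0.29) and Gja1 (0.26) and the microglia markers P2ry12 (0.22) and Tmem119 (0.26), while scaled by library totals all 3 astrocyte and both microglia markers were lower. Lower with the share were Snap25 (-0.24) and 3 of the 4 GABAergic markers, among them Gad2 (-0.31), and of the 4 all were lower scaled by library totals and 2 scaled by totals without the 6 noncoding genes. The part of cell makeup, transcript length and library composition in the members' difference and slopes was not tested.

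Within groups the members rose and fell together from library to library. The median Pearson r of their deviations from the group means was 0.68 over 666 pairs, of which 90.7% were positive, against a median of 0.004 and 50.4% positive over all pairs of genes tested. In numbers 1 to 48 alone the median was 0.57. All pairs share the same 59 libraries, their scaling and their noncoding share. The closest pair was Atp5j and Atp5mpl, both of complex V (r = 0.95), followed by Ndufb6 and Ndufab1, both of complex I (r = 0.94). Ndufab1 is the mitochondrial acyl carrier protein. Uqcrc2 and Ndufs1, with small slopes on the share, were each other's closest member (r = 0.71). The lowest median r to the other members was -0.03 for Cox6a2, 0.005 for Atp5a1, 0.03 for Cox18 and 0.06 for Ndufv3. For Cox6a2 and Cox18 the reads were few, while Atp5a1 had 3041 to 13940 reads and the smallest within-group SD of all members, 0.08. The median SD was 0.31 over the members and 0.35 over all genes.

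The promoters of the members were searched for short cores of factors known to act on such genes. RefSeq promoters on GRCm38.p6, from 250 bases before to 50 after the start, were found for 28 of the 37 members, with 30 promoters in all. The NRF1 core GCGCATGCG, read on both strands, was in 3 of 28 members (10.7%) and in 1.75% of 32851 promoters. The 3 windows of 30 bases that hold it are shown, because NRF1 is the best known activator of nuclear respiratory genes. Capitals mark the core or its reverse complement, 5′ to 3′ on the gene's strand.
Ndufaf4, chr4:24897960-24897989, plus strand: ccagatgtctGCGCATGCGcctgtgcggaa
Ndufa11, chr17:56717692-56717721, plus strand: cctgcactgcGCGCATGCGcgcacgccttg
Uqcr11, chr10:80406807-80406836, minus strand: atcgccttcaCGCATGCGCtatacgtctgc
In Ndufaf4 and Ndufa11 the core also matches on the other strand, in an overlapping position. The slopes on the noncoding share were 0.11 for Ndufaf4, 0.36 for Ndufa11 and 0.31 for Uqcr11, on both sides of the members' median of 0.26.

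The ETS core CCGGAAG, which GABPA binds, was in 7 of 28 members (Atp5j, Cox14, Ndufaf1, Ndufb6, Ndufs3, Uqcr11 and Uqcrh) and in 8.86% of all promoters, read on both strands as were the others. The YY1 core ATGGCGGC was in 4 (Ndufa7, Ndufb5, Ndufs4 and Ndufs7) and in 2.24% of all promoters. The E-box CACGTG, to which CLOCK and BMAL1 bind, was in 2 members (7.14%) and in 7.15% of all promoters. Both sites are shown, with the E-box in capitals, because CLOCK and BMAL1 activate genes such as Per1.
Ndufa7, chr17:33824488-33824517, plus strand: gcggagaggagtCACGTGagcaggggatgc
Ndufv1, chr19:4012907-4012936, minus strand: agcagagggcgaCACGTGagcctggtttac
The 24 h amplitude was 0.02 ± 0.06 in Ndufa7, a complex I accessory subunit, and 0.01 ± 0.04 in Ndufv1, the subunit that binds FMN and oxidises NADH (SE, n = 59). Neither was called (limma, adjusted p = 0.999 for both). A match of letters is a description and not a bound site.

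Exons of 15 members overlapped another gene. The overlap covered 48.3% of the exonic bases of Cox11 (with Tom1l1), 47.9% of Atp5o, where an entry on the same strand is also named Atp5o, and 38.998% of Ndufb6 (with Smim27). It covered 19.7% of Uqcrc2 (Pdzd9), 12.7% of Atp5j (Gabpa), 12.3% of Ndufb5 (Mrpl47) and 10.3% of Cox6a2 (Itgad). The labels name a stranded kit but the strand setting of the counting is not given in the sources used here. Depending on how shared stretches were counted, values of these genes may hold reads of the neighbour or lack reads of their own. Their levels per kilobase carry the same limit.

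Other genes of energy metabolism were read beside the members from lists. Of 42 other oxidative phosphorylation factors listed 13 were tested and none was called over 24 h, with none at an unadjusted p under 0.05 in limma. The smallest p was that of Higd2a, a complex IV factor, with an amplitude of 0.10 ± 0.04 (adjusted p = 0.473, limma). Of the 8 coenzyme Q synthesis genes tested none was called over 24 h and 2 had an unadjusted p under 0.05, of which Coq10b had the smaller (0.22 ± 0.07, adjusted p = 0.253, limma). Of 8 regulators of mitochondrial biogenesis none was called and 1 had an unadjusted p under 0.05, which was Nrf1, with 0.17 ± 0.05 at ZT21.8 (adjusted p = 0.137, limma). Of 12 genes of pyruvate entry and the citric acid cycle none was called and 2 had an unadjusted p under 0.05. Pdk4, which switches off pyruvate dehydrogenase, had the smaller, with 0.23 ± 0.07 at ZT1.12 (adjusted p = 0.184, limma). Of 9 import and dynamics genes none was called and 1 had an unadjusted p under 0.05, which was Mfn1, a fusion factor of the outer membrane, with 0.13 ± 0.04 at ZT20.2 (adjusted p = 0.177, limma). limma voom called none in these 5 lists.

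Of 8 glycolysis genes 1 was called over 24 h. Pfkfb3, whose product makes an activator of phosphofructokinase, had an amplitude of 0.21 ± 0.05 with its maximum at ZT17.5 (SE, n = 59, adjusted p = 0.00889, limma), and was not called scaled by library totals. It was also higher in the dark phase, by 0.27 ± 0.06 (SE, adjusted p = 0.0201, limma). In numbers 49 to 60, 4 of the 8 were higher and none lower, with a median of 0.11, and scaled by library totals 6 were higher, with a median of 0.52. In the same libraries 7 of the 13 other oxidative phosphorylation factors and 4 of the 8 coenzyme Q genes were lower and none higher, whereas scaled by library totals 2 and 3 were higher and none lower. Of the regulators 2 were higher and 3 lower, of the genes of pyruvate entry and the citric acid cycle 3 were higher and 3 lower, and of the import and dynamics genes 1 was higher and 5 lower. Scaled by library totals 3, 7 and 3 of these were higher and none lower, against a median of 0.31 over all genes.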

How the data were processed

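RNA of 59 libraries was analysed from 1 deposited table of log2 values. The labels name the Qiagen RNeasy Plus Micro kit for extraction and the Takara SMART Stranded Total RNA kit for libraries. The submitters' processing notes name FastQC, HTSeq, DESeq2 and GRCm38. The aligner, versions and strand setting are not given in the sources used here. The deposited values are log2 of a scaled count plus 1, judged from the values: in each library they are whole multiples of 1 step, within 4.28e-05 of a whole number, and the reciprocals of the steps follow median-of-ratios factors (Spearman rho 0.996). Whole reads recovered this way served for depth, filters and alternatives.

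Genes with at least 10 reads in at least 4 libraries were fitted with limma 3.58.1 in R 4.3.3 (intensity trend, robust) on the deposited log2 values, with Benjamini-Hochberg adjustment over all 4273 genes. Rhythms were joint tests of a cosine and a sine. The fits were tested on simulated data with independent noise in every gene and library. The genes here vary together between libraries, so that test does not give the error rates on these data. Symbols, positions, overlaps and lengths came from GENCODE M21, and promoters from RefSeq. Replicates are the runs of 12 serial numbers in the titles, where 54 is absent.

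The members, lists and comparisons were chosen with earlier results of these data known. Every member is given by value or range. Those given in detail are the 6 of smallest 24 h p and the 3 of smallest p over 12 h, in females, by phase and between sexes. In males only the member of smallest p is given, and for the rhythm by sex those of unadjusted p under 0.05. By serial number and by share they are the members of largest difference or slope and those not called, not those of smallest p. The extremes by level, and called genes or the smallest p of each list, are given too. Alternatives covered scaling, filters, pseudocount, limma voom, covariates and leaving out libraries. Covariates for serial numbers and for components of the values, the reference to all genes, exonic length, the other lists under each scaling and voom, and the correlations were added after seeing the data. Some listed marker genes are not reported here.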

Additional observations from a re-analysis of the deposited data

Results flagged for a closer look

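Of 36 groups of libraries by time examined for the 6 members of smallest rhythm p, 2 held a library far from the rest. Chance gives about 1 in 20 groups, so 2 of 36 is about as many as chance gives. At ZT6 the highest library of Ndufs1, female replicate 4, had a log2 value of 12.2444 (3073 reads), while the next had 11.8653. The gap was 0.515 of the range of the 10 libraries, against a critical value of 0.466. At ZT2 the highest library of Uqcrfs1, female replicate 4, had 12.3352 (1659 reads) and the next 11.6614, a gap of 0.571 of the range. Without either library no member was called over 24 h in limma.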

How the results depend on the processing

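The counts of members called over 24 h, over 12 h, in each sex, by sex, by phase and between sexes were 0 in limma and stayed 0 under every alternative run except the components as covariates. With the first 2 components of the residuals 1 member was called over 24 h, 4 in males, 17 in females, 22 for the difference of rhythm between the sexes, 22 over 12 h and 2 for dark minus light. The shares of all genes called in those fits were 8.4%, 8.4%, 16.2%, 16.8%, 22.5% and 6.72%. These components average 0 in every group by construction, so they shrink the residual spread and leave the amplitudes as they were. The calls of these fits therefore cannot decide on a rhythm or a difference. With components of the values 2 members were called over 24 h and 1 for dark minus light, against 11.7% and 4.82% of all genes, and the cause was not tested. By serial number 2 members were called with library totals and 10 with the same animal number averaged, against 48.2% and 18.7% of all genes. The averaged fit had 37 units, and some of them join earlier and later libraries. Scaled by library totals, the slopes of Atp5mpl (-0.19), Uqcrh (-0.19) and Ndufa3 (-0.21) per 10 points reversed. The slope of Ndufs1 reversed to 0.0042 with totals without the noncoding genes and 0.0062 with the upper quartile, and ran from -0.0246 to 0.0309 without 1 library at a time (highest without ZT6 female replicate 4). The difference of Cox6a2 by serial number reversed to -0.36 with averaged animal numbers and ran from -0.12 to 0.55 without 1 library at a time, lowest without ZT10 male replicate 5 and highest without ZT22 male replicate 5. Leaving out 1 library gave 31 to 33 members called by serial number and 30 to 32 by share, and 0 elsewhere. With all libraries kept, 54% of all genes were called by serial number and 52.8% by share. Cox18 became called lower by share without any 1 of 6 libraries (ZT2 female replicates 1 and 4, ZT22 female replicate 4, and male replicate 5 at ZT2, ZT10 and ZT18). The replicate block gave 28 members by share, 27 higher and 1 lower, where 39.6% of all genes were called. It gave 0 members in every rhythm, phase and sex comparison. The labels do not say that a replicate number marks a shared animal, day or batch. Deviations correlated by 0.11 on average with the same number (from -0.49 to 0.60, so not above 0.1 in every pair) and by -0.03 with other numbers, and 26 of 59 libraries correlated best with their own number. This is a hint from the data that libraries of a number are alike, and the block was kept as an alternative. The block could not be fitted to the comparison by serial number, which it contains. Depth limits Cox6a2 and Cox18, with 0 to 25 and 4 to 77 reads.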
